A study of Solanum lycopersicum with 6 samples.

Results

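The GH3 genes encode acyl-amido synthetases, and 5 tomato (Solanum lycopersicum) genes of this family were followed across the shoot apex libraries of the series. They were taken by identifier, as a list drawn up with earlier results of these data known: Solyc01g107390, Solyc01g107400, Solyc02g064830, Solyc02g092820 and Solyc07g063850, which are 5 of the 34722 genes in the deposited table. The identifiers carry their chromosome by convention, which puts Solyc01g107390 and Solyc01g107400 on chromosome 1, Solyc02g064830 and Solyc02g092820 on chromosome 2, and Solyc07g063850 on chromosome 7. Their assignment to the GH3 family came with the list of members and could not be checked, since the RefSeq gene table used here (assembly SLM_r2.1) matched 0 of the identifiers. That table names 18 genes with GH3 symbols, 2 of them on chromosome 1, 2 on chromosome 2 and 3 on chromosome 7, so the 5 genes are not the whole family. GH3 genes outside the list were not analysed here.

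GH3 enzymes join the auxin indole-3-acetic acid, or in some family members jasmonate, to amino acids. Auxin bound to aspartate or glutamate is stored or broken down, so these enzymes lower the pool of active hormone. Many GH3 genes are themselves switched on within a short time of auxin exposure, through auxin response factors freed from Aux/IAA repressors, and their transcripts are widely read as an auxin response. At the shoot apex, auxin that accumulates at the flank of the meristem marks where the next leaf starts. Which substrate each of the 5 enzymes uses is not annotated in the sources used here.

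The 6 libraries formed 3 groups of 2. Wild-type (WT) apices comprised the shoot apical meristem together with its 2 youngest leaf primordia. Apices of the leafless (lfs) mutant, which forms no leaves, comprised the meristem alone, and so did the pin-like shoots induced in tomato with a spray of 1 mM TIBA (triiodobenzoic acid), a compound that blocks the directed movement of auxin from cell to cell. All seedlings were raised in a greenhouse for 14 to 18 days and fixed in acetone before dissection. The labels give no lfs allele, no spray on the WT or lfs plants, and no statement on whether repeats came from separate plants. The spread among these libraries, which enters each p-value, may therefore be technical. Mutation or treatment cannot be told apart here from the presence of leaf primordia, which only the WT samples held. Markers of meristem or primordium could not be checked, because no source used here names the genes behind the identifiers.

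Values are the authors' normalized counts, each library's gene reads divided by 1 size factor, so that 1 read was worth 0.813 to 1.20. Between 17640302 and 26054787 reads were assigned to genes per library. Over all tested genes, the median SD of log2 values between replicates was 0.092 for WT, 0.16 for lfs and 0.23 for TIBA pins (n = 2 each). Transcript lengths were not given, so levels are compared between groups for the same gene and not between genes.

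Of the 5 GH3 genes, Solyc01g107390 and Solyc02g092820 were called lower than in WT in both leafless apices. For Solyc01g107390 the call in lfs was just under the threshold (limma adjusted p = 0.048). That call was lost with a pseudocount of 0.5, a minimum mean of 20 or a replicate block. Solyc07g063850 did not pass the test in any comparison, and Solyc01g107400 and Solyc02g064830 had too few reads to be tested. A gene was tested when it reached a normalized count of 10 in at least 2 libraries, which 19807 genes did, 3 of the 5 GH3 genes among them. In lfs against WT 2 GH3 genes were called lower and 0 higher, where 5.29% of all tested genes were called lower and 8.90% higher (limma on log2(normalized count + 1), Benjamini-Hochberg adjusted p under 0.05 over all tested genes). In TIBA pins against WT 2 were called lower and 0 higher, where 7.77% of all tested genes were called lower and 10.8% higher. In both comparisons the 2 included Solyc01g107390, which passed the minimum for testing mainly through its WT libraries. The filter itself favoured a lower call for that gene, so these counts are not read as a result about the list. In lfs against TIBA pins 0 were called, where 4.60% of all tested genes were called in either direction. In that last comparison 1 GH3 gene had an unadjusted p under 0.05 in limma. On reads recovered from the normalized counts, edgeR called 4.17% of all genes and DESeq2 10.1%, and both called 0 GH3 genes. Both comparisons with WT use the same 2 WT libraries.

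**Figure D1:**
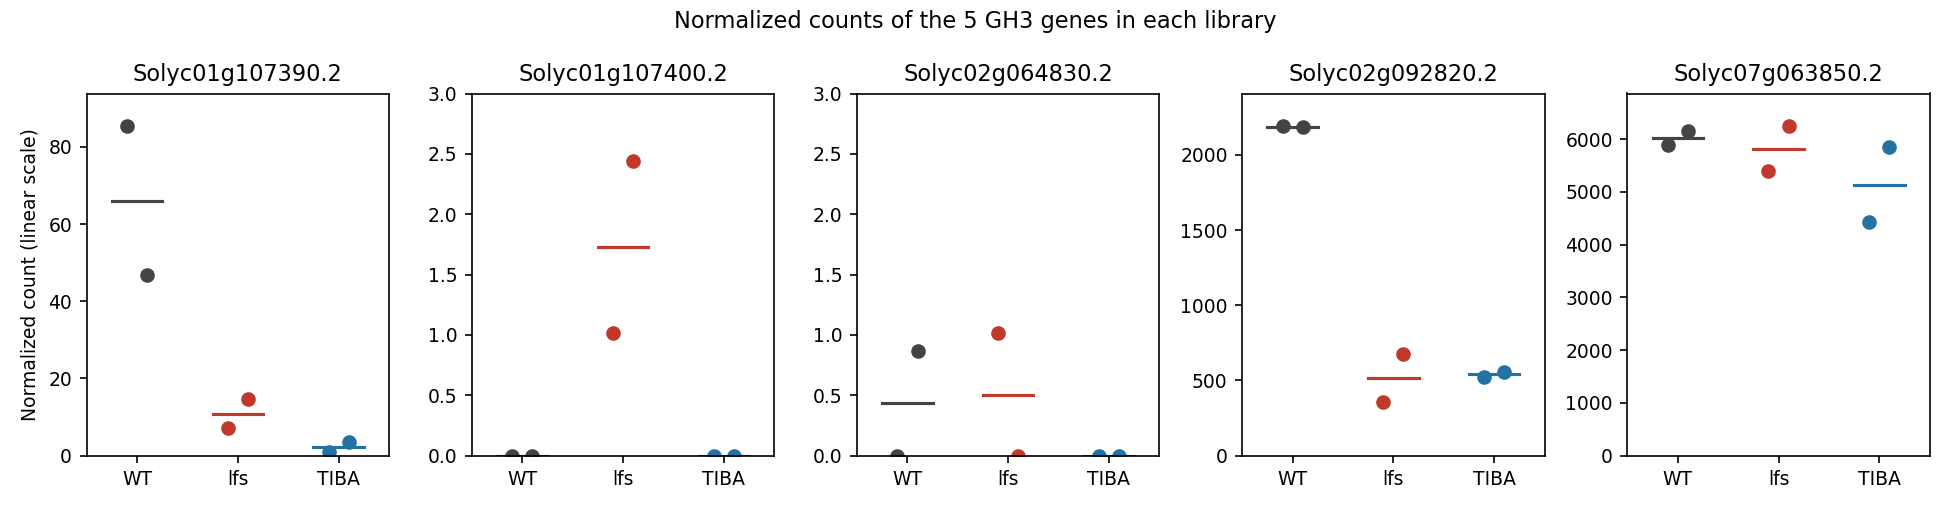
Normalized count (linear scale, each panel with its own axis from 0) of the 5 GH3 genes in each library, with points for the 2 libraries of a group and a line for their mean. Both WT points lie above all 4 points of the leafless apices for Solyc01g107390 and Solyc02g092820. Both lfs libraries lay below both WT libraries for 33.1% of all tested genes, and both TIBA libraries for 32.2%. The share with both separations was not counted. The lfs points of Solyc07g063850 overlap with those of both other groups, while its TIBA points lie just below its WT points. Solyc01g107400 and Solyc02g064830 stay below a normalized count of 3.

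Solyc02g092820 stood 4.44-fold lower in lfs apices and 4.05-fold lower in TIBA pins than in WT. Its normalized count was 2189 and 2183 in WT. The lfs libraries held 357.5 and 674.9, and those of TIBA pins 520.4 and 559.0. Both lfs libraries thus lay below both WT libraries, as for 33.1% of all tested genes, and so did both TIBA libraries, as for 32.2%. The share of genes with all 4 leafless libraries below both WT libraries was not counted. Group means were 2186 ± 4.12 in WT, 516.2 ± 224 in lfs and 539.7 ± 27.3 in TIBA pins (SD, n = 2 each), from 4957, 1183 and 1096 reads.

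The WT replicates of Solyc02g092820 were nearly identical, whereas lfs replicate 2 stood 1.89 times as high as lfs replicate 1. On the log2 scale their SD was 0.647 in lfs, 0.0027 in WT and 0.073 in TIBA pins. In lfs the gene fell by 2.15 on the log2(value + 1) scale relative to WT (SE 0.27, 95% interval -2.79 to -1.51, limma adjusted p = 0.0037). In TIBA pins it fell by 2.02 on that scale (SE 0.27, 95% interval -2.65 to -1.38, limma adjusted p = 0.0051). The SE is shared because limma pooled the spread of the 3 groups and drew it towards that of all tested genes. It therefore does not measure the replicate SD of the groups compared, for this gene or the others. With only the 2 groups compared, the SE was 0.29 for lfs against WT and 0.12 for TIBA pins against WT. Of the 19807 tested genes, 343 had a more negative difference in lfs and 374 in TIBA pins, 1.73% and 1.89% of them.

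Between lfs and TIBA pins, Solyc02g092820 differed by a log2 value of -0.13 (SE 0.27, 95% interval -0.77 to 0.50, limma adjusted p = 0.80). A test that misses its threshold does not show equal levels, and the interval reaches from 1.71-fold lower to 1.42-fold higher in lfs. The sign of this difference hung on 1 library: leaving out lfs replicate 1 gave 0.32, and leaving out lfs replicate 2 gave -0.59. In a bulk sample, fewer cells expressing a gene and less RNA per cell cannot be told apart.

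Solyc01g107390 was lower in both leafless apices as well, and its level in TIBA pins was close to the detection limit. Its normalized count was 85.3 and 46.8 in WT, against 7.09 and 14.6 in lfs and 0.827 and 3.59 in TIBA pins. Both lfs libraries lay below both WT libraries, as for 33.1% of all tested genes, and above both TIBA libraries, as for 25.3%. The share of genes with both separations was not counted. These values rest on 95 and 54 reads in WT, 7 and 18 in lfs, and only 1 and 3 in TIBA pins. The gene passed the minimum for testing mainly through its WT libraries, so that a difference in the lower direction was favoured by the filter itself.

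Group means of Solyc01g107390 were 66.0 ± 27.2 in WT, 10.9 ± 5.34 in lfs and 2.21 ± 1.95 in TIBA pins (SD, n = 2 each). In TIBA pins it fell by 4.47 on the log2(value + 1) scale relative to WT (SE 0.67, 95% interval -6.04 to -2.90, limma adjusted p = 0.0067). Of the tested genes, 38 (0.192%) had a more negative difference there. That rank was favoured by the filter and rests on 4 TIBA reads, so it is given as a description. From the summed reads, 149 in WT and 4 in TIBA pins, the level was 33.6-fold lower, with an exact 95% interval of 12.8 to 125 that covers counting error only. This call was lost without WT replicate 1 (log2 -4.05, limma adjusted p = 0.074), while over all alternatives the adjusted p lay between 1.96e-05 and 0.074. Leaving out either TIBA library moved the fold by over 1.5 times, to a log2 value of -3.81 on dropping TIBA replicate 1 and -5.14 on dropping TIBA replicate 2, and a pseudocount of 5 moved it to -3.27.

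In lfs, Solyc01g107390 fell by 2.51 on the log2(value + 1) scale relative to WT (5.71-fold lower, SE 0.67, 95% interval -4.08 to -0.94), and the limma adjusted p of 0.048 was just under the threshold. The 149 WT reads and 25 lfs reads gave a ratio of 5.83, with an exact 95% interval of 3.80 to 9.29 for counting error only. The call did not hold in limma when any WT or lfs library was left out, with adjusted p-values of 0.37 and 0.16 on dropping WT replicate 1 or 2, and of 0.22 and 0.089 on dropping lfs replicate 1 or 2. It was also lost with a replicate block (adjusted p = 0.078), a pseudocount of 0.5 (adjusted p = 0.063) and a minimum mean of 20 (adjusted p = 0.058). It held in the other 9 of 16 alternatives, edgeR (adjusted p = 0.033) and DESeq2 (adjusted p = 0.0092) on the recovered reads among them, and the adjusted p over all 16 ran from 0.0092 to 0.37.

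The level of Solyc01g107390 in lfs lay between those in WT and in TIBA pins, but the step from lfs to TIBA pins did not pass the test. The log2 difference was 1.96 (SE 0.67, 95% interval 0.39 to 3.53, limma unadjusted p = 0.021, adjusted p = 0.15). The 25 lfs reads against 4 TIBA reads gave a ratio of 5.76, with an exact 95% interval of 1.99 to 22.8 for counting error only. No alternative among the 16 brought the adjusted p under 0.05, and its range was 0.090 to 0.46. The log2 difference itself moved to 1.29 on dropping TIBA replicate 1, 2.62 on dropping TIBA replicate 2 and 1.12 with a pseudocount of 5, in each case by over 1.5 times as a fold.

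**Figure D2:**
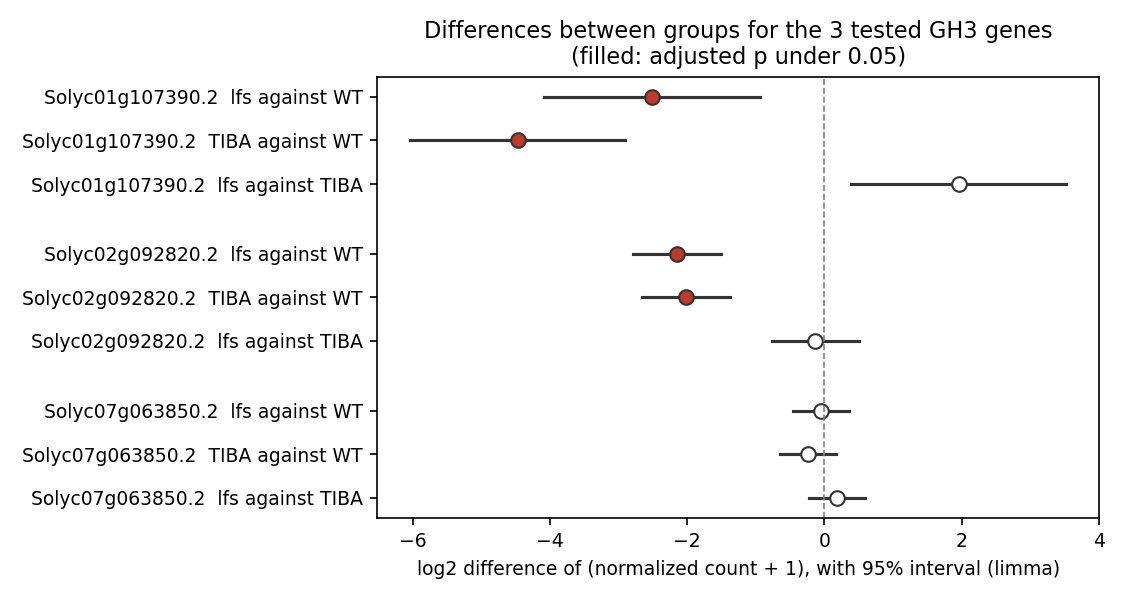
Difference between groups on the log2(normalized count + 1) scale for the 3 tested GH3 genes, with points for the limma estimate and lines for its 95% interval; filled points have an adjusted p under 0.05. The 4 filled points are those of Solyc01g107390 and Solyc02g092820 against WT, from -4.47 to -2.02, while Solyc07g063850 lies between -0.24 and 0.19.

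Solyc07g063850 passed no test, although 4880 to 7675 reads per library stood behind its values. Its normalized count was 5880 and 6157 in WT, against 5392 and 6240 in lfs and 4434 and 5841 in TIBA pins. The lfs libraries overlapped with those of both other groups, while both TIBA libraries lay below both WT libraries, the higher of them by a small margin. Such a separation was found for 32.2% of all tested genes. Group means were 6018 ± 196 in WT, 5816 ± 600 in lfs and 5137 ± 995 in TIBA pins (SD, n = 2 each).

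Against WT, Solyc07g063850 differed by a log2 value of -0.05 in lfs (SE 0.17, 95% interval -0.46 to 0.36, limma adjusted p = 0.88). In TIBA pins the value was -0.24 (SE 0.17, 95% interval -0.65 to 0.17, limma adjusted p = 0.36). Between lfs and TIBA pins it was 0.19 (SE 0.17, 95% interval -0.22 to 0.60, limma adjusted p = 0.56). The intervals for both comparisons with WT end above the differences of -2.15 and -2.02 found for Solyc02g092820. Small differences in either direction lie within them.

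**Figure D3:**
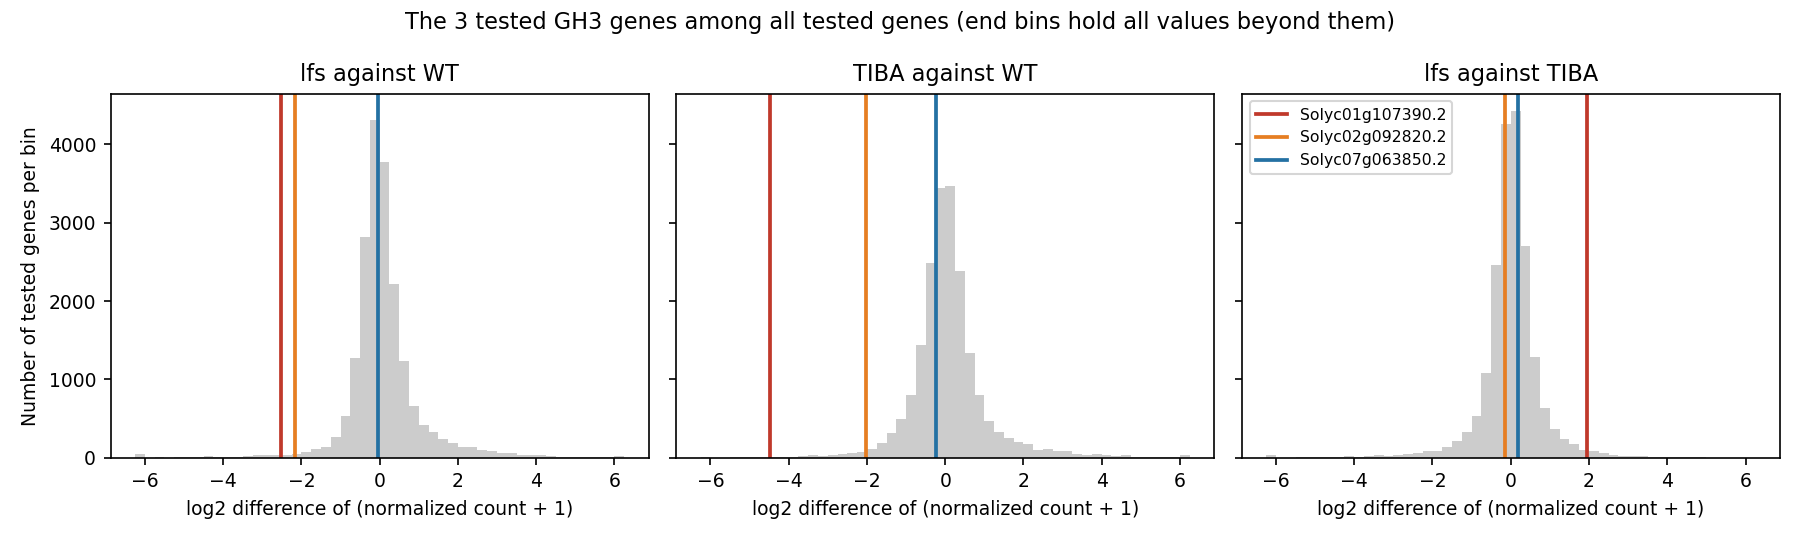
Number of tested genes in bins of 0.25 on the axis of the log2 difference of (normalized count + 1), for the 3 comparisons, with a vertical line for each tested GH3 gene. Against WT, Solyc01g107390 and Solyc02g092820 lie in the lower tail, with 0.192% to 1.89% of genes below them. Solyc01g107390 passed the minimum for testing mainly through its WT libraries, so the filter itself favoured its place there. Solyc07g063850 lies in the body of the distribution.

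Solyc01g107400 and Solyc02g064830 were at or near 0 in every library and give no comparison. Solyc01g107400, whose identifier follows directly on that of Solyc01g107390, had 1 and 3 reads in the lfs libraries and 0 in the other 4. Its normalized count was 1.01 and 2.44 in lfs, and a count of 0 allows up to 2.69 and 2.60 in the WT libraries and 2.48 and 3.59 in the TIBA libraries (3 reads each, for counting error only). The lfs values are thus within what the other libraries could hold undetected, and no fold is given. The authors' deposited table lists a log2 fold change of 5.74 for this gene in lfs against WT (adjusted p = 0.69), a number that rests on these 4 reads.

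Solyc02g064830 had 1 read in WT replicate 2, 1 read in lfs replicate 1 and 0 in the other 4 libraries. Transcripts of both genes were therefore not detectable, or barely so, at this depth in WT apex, lfs apex and TIBA pin. Sequence likeness between Solyc01g107390 and Solyc01g107400 was not examined here, nor how reads fitting both were counted.

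In the authors' deposited table, the same 2 genes were below WT in both leafless groups at an adjusted p under 0.05, where 4.60% of genes with an adjusted p were lower in lfs and 5.96% in TIBA pins. For Solyc02g092820 the authors' deposited table gives log2 fold changes of -2.08 in lfs (adjusted p = 3.33e-11) and -2.02 in TIBA pins (adjusted p = 1.70e-10). For Solyc01g107390 the authors' deposited table gives -2.59 in lfs (adjusted p = 0.0019) and -5.03 in TIBA pins (adjusted p = 2.91e-06). In lfs against TIBA pins 0 GH3 genes passed there, where 5.65% of genes did, with an adjusted p of 0.13 for Solyc01g107390 in the authors' deposited table. These values come from the same libraries and add no independent measurement.

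The profile of each tested GH3 gene over the 6 libraries was set beside those of all tested genes. Likeness was measured as the root mean square difference between log2 profiles over the 6 libraries, each centred on its own mean. It was 1.16 log2 units between Solyc01g107390 and Solyc02g092820, where the median over all tested genes was 1.93 for the former and 1.06 for the latter. It was 0.949 between Solyc02g092820 and Solyc07g063850, and 1.79 between Solyc01g107390 and Solyc07g063850. The gene nearest to Solyc02g092820 among all tested was Solyc02g090720.2 (0.141 log2 units), and 10 genes lay within 0.3 of it. The nearest to Solyc01g107390 was Solyc07g066250.1 (0.454), with 0 genes within 0.3, and the nearest to Solyc07g063850 was Solyc06g082600.2 (0.0315), with 8009 genes within 0.3. Between replicates, the log2 SD of Solyc01g107390 was 0.60 in WT, 0.67 in lfs and 0.94 in TIBA pins, each above 0.3. The numbers of genes within 0.3 are therefore not read as how distinct a pattern is.

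Genes of the auxin pathway outside the GH3 family were summarised from a pair of lists recalled from published tomato gene family surveys. Their identifiers could not be checked against any source used here, so they are given by count only. The lists were drawn up with earlier results of these data known, and may not hold the whole families. Their counts and medians are therefore descriptions and are not read as a result about either family. Of 18 listed Aux/IAA genes, which encode short-lived repressors that are themselves rapid auxin-response genes, 18 were tested. In lfs against WT 5 were higher, 2 lower and 11 not called (limma), where 8.90% of all tested genes were higher and 5.29% lower, with a median log2 difference of 0.66 against -0.0010 over all tested genes. In TIBA pins against WT 8 were higher, 2 lower and 8 not called, where 10.8% of all tested genes were higher and 7.77% lower, with a median of 0.77 against 0.015 over all tested genes. Between lfs and TIBA pins 2 were higher, 2 lower and 14 not called, where 4.60% of all tested genes were called in either direction, with a median of -0.015 against 0.018.

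Of 10 listed PIN genes, which encode auxin efflux carriers, 8 were tested. In lfs against WT 1 was higher, 1 lower and 6 not called (limma), a share near that of all tested genes (8.90% higher and 5.29% lower), with log2 differences from -5.76 to 2.12 and a median of 0.20. In TIBA pins against WT 0 were higher, 1 lower and 7 not called (10.8% higher and 7.77% lower over all tested genes), with log2 differences from -2.57 to 2.71 and a median of 0.12. Between lfs and TIBA pins 0 were higher, 1 lower and 7 not called (4.60% called in either direction over all tested genes), with log2 differences from -7.59 to 0.98 and a median of 0.60. The 2 called GH3 genes were picked for being lower than WT, so their side of 0 cannot be set against the median of the Aux/IAA list. The remaining tested GH3 gene, Solyc07g063850, stood at a log2 difference from WT of -0.05 in lfs and -0.24 in TIBA pins. Single Aux/IAA genes were called in either direction, and the difference between the lists was not tested.

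**Figure D4:**
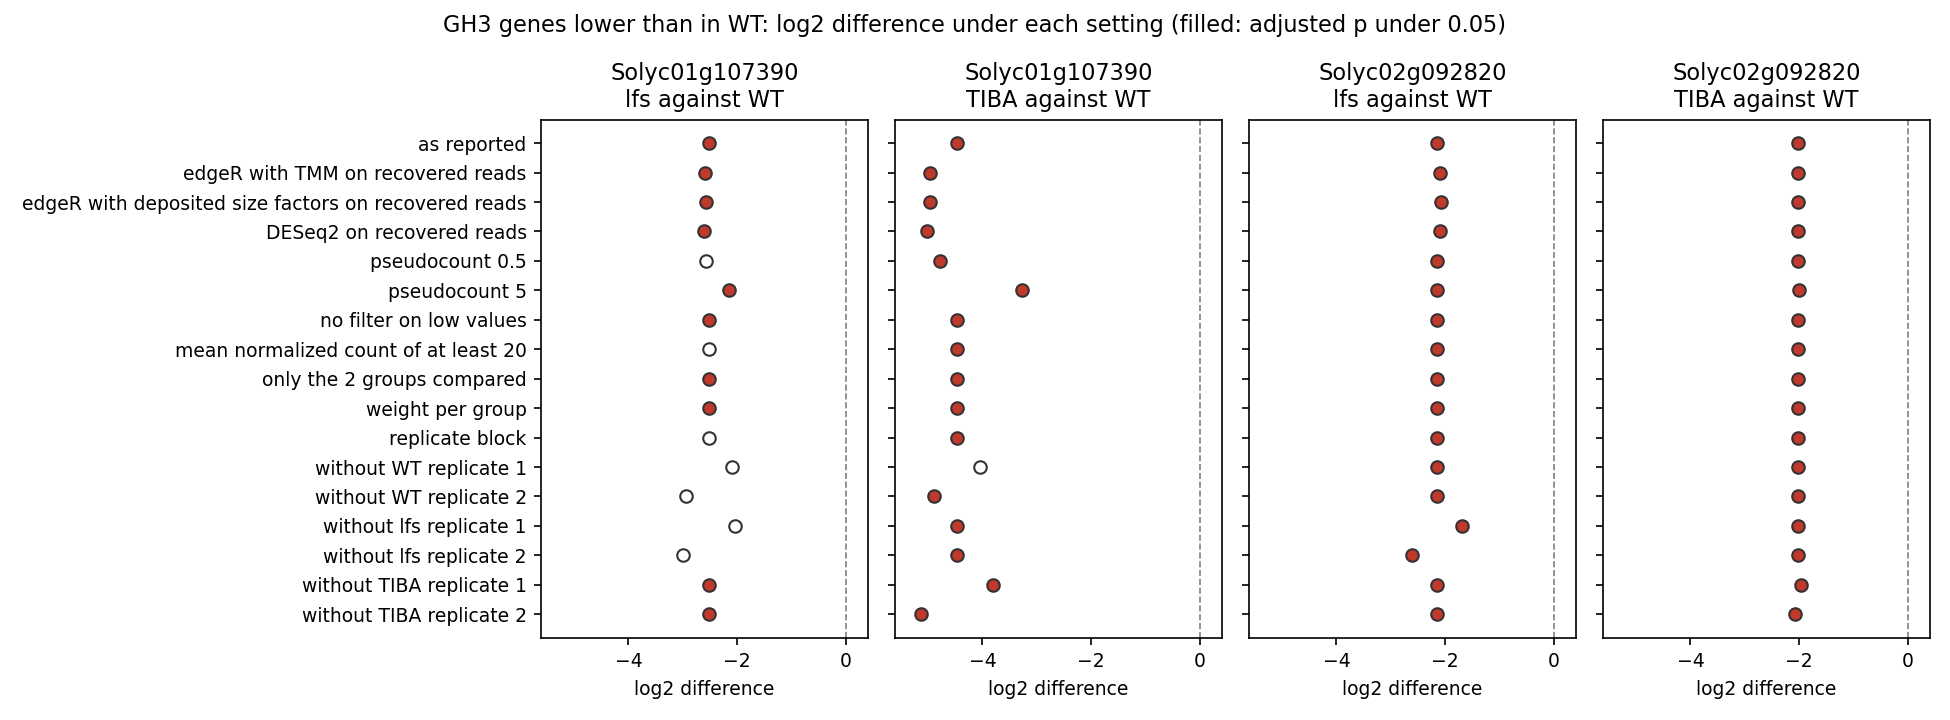
Log2 difference from WT of the 2 GH3 genes that were called lower, as reported and under each of 16 alternative settings (one per line, same horizontal axis in every panel); filled points have an adjusted p under 0.05. Every point lies below 0; those of Solyc02g092820 are all filled, while 7 of the 16 alternatives for Solyc01g107390 in lfs and 1 of the 16 in TIBA pins are open.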

How the data were processed

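Per the submitters' processing notes, TopHat2 (2.0.10), HTSeq (0.6.1p1) and DESeq2 (1.6.3) were used; build, annotation and strand setting: not given in the sources used here. For 34722 genes the authors deposited DESeq2-normalized counts, a signal of reads divided by a size factor, per the file headers. The authors also deposited their own comparisons, as log2 fold changes with raw and adjusted p-values. Dividing by the value of 1 read gave whole reads for 100% of the 208332 values (tolerance 0.001 reads), so reads were recovered. Groups came from the sample titles.

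All genes with a normalized count of at least 10 in at least 2 libraries were tested with limma (3.58.1, R 4.3.3; trend, robust) on log2(normalized count + 1), the 3 groups in 1 fit, two-sided, with Benjamini-Hochberg adjustment. Fold changes on this scale understate those of low genes. edgeR (4.0.16, 2744 genes called in lfs against WT, 3475 in TIBA against WT and 825 in lfs against TIBA) and DESeq2 (1.42.0) on recovered reads, other pseudocounts and filters, group weights, a replicate block and leaving out libraries were alternatives. Members and lists were chosen with earlier results of these data known. All 5 members are named; the single nearest gene in pattern is named for each tested member. The limit of 0.3 log2 units and the crossed pairing were set after seeing the data. No sequences are shown.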

Additional observations from a re-analysis of the deposited data

How the results depend on the processing

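Solyc02g092820 stayed called lower than WT in lfs (log2 -2.61 to -1.69) and in TIBA pins (-2.07 to -1.97) in all 16 alternatives. The number of GH3 genes called in lfs against WT became 1 with a pseudocount of 0.5, a minimum mean of 20 or a replicate block, and ranged from 1 to 2 over the fits leaving out 1 library; the gene lost was Solyc01g107390. In TIBA against WT it ranged from 1 to 2 over the latter fits. In lfs against TIBA it was 0 in every alternative. The sign turned for 3 differences that were not called: Solyc02g092820 in lfs against TIBA without lfs replicate 1 (log2 0.32, range -0.59 to 0.32 leaving out 1 library), Solyc07g063850 in lfs against WT without lfs replicate 1 (0.053, range -0.16 to 0.053), and Solyc07g063850 in lfs against TIBA without TIBA replicate 1 (-0.010, range -0.010 to 0.39). The cause was not tested.

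Over all genes, calls in lfs against WT numbered 2810, but 4494 with only the groups compared, 5020 with a weight per group, and 536 to 4451 leaving out 1 library. Calls in TIBA against WT numbered 3681, and 654 to 6502 leaving out 1 library. Calls in lfs against TIBA numbered 912, but 2008 in DESeq2, 369 with only the groups compared, 360 with a weight per group, 474 with a replicate block, and 103 to 2734 leaving out 1 library. In those fits a lone library is assumed to vary like the other groups.

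Samples share replicate numbers across groups, but the differences between replicate 1 and 2 correlated across genes by only 0.015 (WT and lfs), -0.051 (WT and TIBA) and -0.14 (lfs and TIBA), so the numbers were not taken to pair samples. With the replicate block, 2092 genes were called in lfs against WT and 2743 in TIBA against WT. With the numbers crossed, 1320 genes and 0 GH3 genes were called in lfs against TIBA. For Solyc01g107400 and Solyc02g064830 no alternatives are given, as neither was tested. Both of these genes held too few reads for a test, and Solyc01g107390 had 4 reads in TIBA pins. The cause of these low counts was not tested.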

Other observations

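The genes next to the 2 called GH3 genes in the deposited table, which lists identifiers in order, are given here beside the share of all tested genes called, which was 5.29% lower and 8.90% higher in lfs against WT and 7.77% lower and 10.8% higher in TIBA pins against WT. Of the 9 genes other than GH3 members within 5 rows of Solyc01g107390, 9 were tested, and 1 was lower, 1 higher and 7 not called in lfs against WT (limma, log2 -0.62 to 2.47). In TIBA pins against WT the counts were likewise 1, 1 and 7 (log2 -0.64 to 1.90), where Solyc01g107390 itself was at -4.47. Of the 10 genes around Solyc02g092820, 8 were tested, and 0 were lower, 0 higher and 8 not called in lfs against WT (log2 -0.30 to 1.48). In TIBA pins against WT 0 were lower, 1 higher and 7 not called (log2 -0.69 to 2.49). Counts this small are near those shares. These neighbours were looked at after the values of the GH3 genes had been seen.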
